A study of Homo sapiens with 28 samples.

Results

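The genes described here are those of the nucleus that encode the respiratory chain and the ATP synthase of mitochondria. They were taken from the table of all genes by their symbols, for the families NDUF, SDH, UQCR, CYC1, COX5 to COX8 and ATP5, without pseudogenes. A mean count of at least 10 over the 28 libraries was required, and 1 row per symbol was kept. The symbol patterns matched no row of the COX4 family, so no COX4 gene is among the complex IV genes described here. Of 97 rows that matched the symbol patterns, 77 were kept out of 30887 rows in the table. The others were 13 pseudogenes, 5 rows below the mean count and 2 second rows of a symbol. All 77 genes passed the filter on low counts. The members nearest above the limit were ATP5D and NDUFC1, with mean counts of 381.89 and 399.68, and the rows nearest below it were a second row of NDUFA7 at 6.90 and COX6B2 at 4.08. By complex there were 37 genes of complex I, 4 of complex II, 9 of complex III, 10 of complex IV and 15 of the ATP synthase. NDUFA4 was counted in complex IV, of which its protein is a subunit. The 2 remaining symbols, ATP5S and ATP5SL, match the pattern but their proteins are not subunits of the enzyme. COX7A2L and USMG5 (now ATP5MK) do not match the patterns and are described with the related genes at the end.

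Kelly cells, an established human neuroblastoma line with an amplified MYCN gene, received 25 nM of a synthetic microRNA and were harvested after 48 h. The 6 mimics, with 4 libraries each, were of miR-99b-5p, of miR-380-3p, of miR-485-3p, of miR-100-3p, of miR-1915-3p and of miR-1283, and 4 libraries with a scrambled RNA served as the control. All 7 groups shared the cell line, the dose and the time, and each mimic was compared with the same 4 control libraries. The labels do not say that libraries came from separate cultures, so the p-values measure the spread between these libraries, which may be technical. In RNA from whole cultures, fewer cells of one kind and less RNA per cell cannot be told apart.

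The respiratory chain carries electrons from NADH and succinate to oxygen and pumps protons across the inner mitochondrial membrane, and the ATP synthase uses the return flow of protons to make ATP. Complex I takes electrons from NADH, complex II from succinate, complex III passes them from ubiquinol to cytochrome c, and complex IV hands them to oxygen. Complex I has core subunits that hold the flavin and the iron-sulfur clusters or pump protons, and many accessory subunits needed for its assembly and stability. The genes of its membrane core and the catalytic core of complex IV lie in mitochondrial DNA, so the complexes need subunits from both genomes.

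The mature microRNAs that the mimics are named for are shown because their seeds decide which sites were searched. The sequences are from RefSeq on GRCh38.p14, and the capitals mark the seed, bases 2 to 8.
miR-99b-5p: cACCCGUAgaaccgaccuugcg
miR-380-3p: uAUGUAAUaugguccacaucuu
miR-485-3p: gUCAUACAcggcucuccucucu
miR-100-3p: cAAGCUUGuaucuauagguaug
miR-1915-3p: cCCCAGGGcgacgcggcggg
miR-1283: uCUACAAAggaaagcgcuuucu
The 6 seeds all differ. The mature sequence of miR-99b-5p lies at chr19:51692618-51692639 on the plus strand, and those of miR-380-3p and miR-485-3p lie on the plus strand of the same chromosome arm at chr14:101025056-101025077 and chr14:101055464-101055485. That of miR-100-3p lies at chr11:122152240-122152261 and that of miR-1915-3p at chr10:21496576-21496595, both on the minus strand. The sequence of miR-1283 is encoded at chr19:53688494-53688515 and at chr19:53758245-53758266, both on the plus strand.

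Library totals ran from 10.99 to 23.3 M counts. MYCN ran from 3234 to 6925 CPM (counts scaled to 1e6 per library), and PHOX2A, HAND2, GATA3, TH, DBH and ISL1 were present in every library. Of the markers of other cell types, EPCAM, PECAM1 and ALB stayed below 1 CPM in every library, and KRT19, VWF and COL1A1 were low. PTPRC and CD3E had no row in the table of counts. The 77 genes took between 0.784% and 1.04% of a library's counts. Their share was 0.853% ± 0.051 in miR-99b-5p, 0.863% ± 0.0555 in miR-380-3p, 0.988% ± 0.0511 in miR-485-3p, 0.91% ± 0.0897 in miR-100-3p, 0.973% ± 0.0301 in miR-1915-3p, 0.933% ± 0.0271 in miR-1283 and 0.934% ± 0.0284 in control libraries (SD, n = 4 each). Libraries also differed in a GC slope, which ran from -2.16 to 3.04 log2 units per unit of GC fraction. For this slope, each gene's log2 CPM less its mean over all libraries was set against the GC fraction of its transcript. A slope of 0 thus marks a library like the average of all libraries.

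Levels of single subunits in control cells differed widely on a per-length scale. ATP5J2, subunit f of the proton channel part of the ATP synthase, had the highest level at 522.7 ± 37.7 CPM per kb (SD, n = 4). It was followed by ATP5B, the catalytic beta subunit, at 474.7 ± 16.3 CPM per kb and by ATP5F1, a stalk subunit, at 437 ± 6.98 CPM per kb. ATP5J2 and ATP5B overlapped within their SDs. The lowest subunit was NDUFV3, an accessory gene of complex I, at 11.5 ± 0.631 CPM per kb. It was followed by SDHD, a membrane anchor of complex II, at 24.5 ± 0.891 CPM per kb and UQCRFS1, the Rieske iron-sulfur protein of complex III, at 25.1 ± 1.42 CPM per kb. The last pair did not differ beyond its spread.

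By complex, the median level in control cells was 87.8 CPM per kb for complex I, 69.4 for complex II, 114.3 for complex III, 206.1 for complex IV and 188.1 for the ATP synthase. NDUFS5 at 399.1 CPM per kb was the most abundant gene of complex I and COX6A1 at 382.4 that of complex IV. UQCRH, the hinge protein, led complex III at 361.9 CPM per kb and SDHC led complex II at 115.7 CPM per kb. COX5B at 59.5 and ATP5D at 42.8 CPM per kb were lowest in complex IV and the ATP synthase. The genes are short: their median deposited length was 761 bases, against 2190 bases over all genes tested, and their median transcript GC was 47.9%, against 48.3%.

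**Figure D1:**
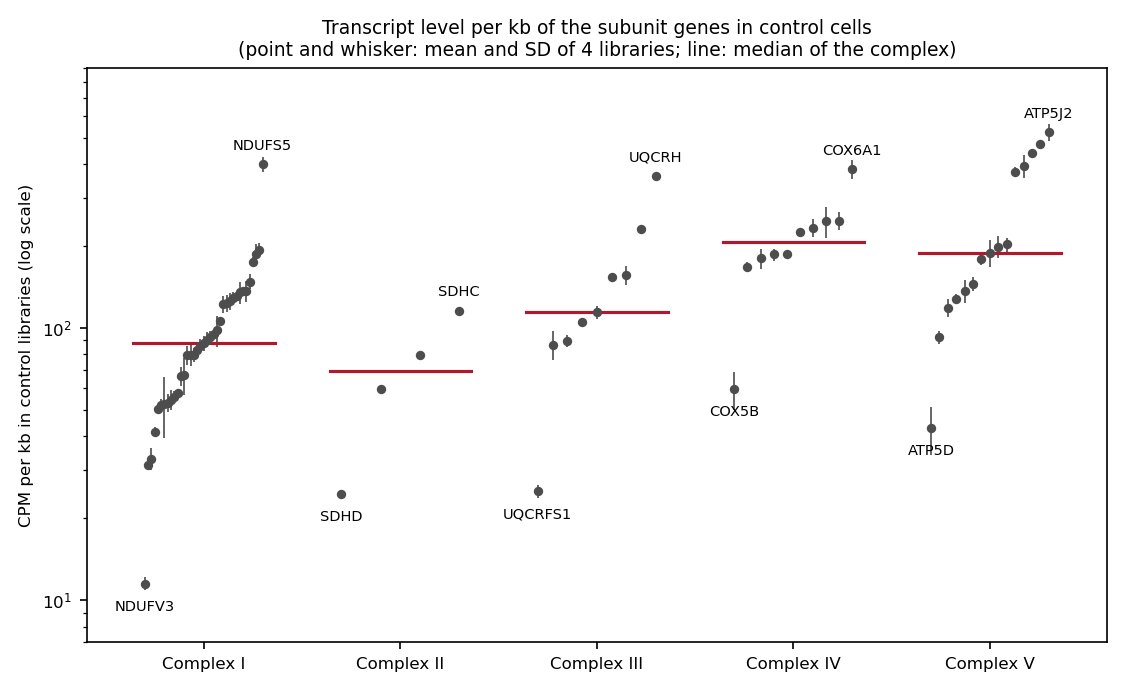
Mean level per kb of each subunit gene in the 4 control libraries, on a log axis, by complex; whiskers are SDs and red lines the medians of the complexes. Complex IV and the ATP synthase have the highest medians, 206.1 and 188.1 CPM per kb, and NDUFV3 is lowest at 11.5 CPM per kb.

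Across the 6 mimics, 23 of the 77 genes (29.9%) passed an adjusted p of 0.05 in at least 1 comparison with the control (edgeR's quasi-likelihood test with Benjamini-Hochberg adjustment over the 15058 genes tested), against 39% of all genes tested. Each of the 23 was called under exactly 1 mimic, and 54 genes had no call. Changes were small, and the largest, that of NDUFB10 under miR-485-3p, was 0.93 on the log2 scale, short of 2-fold. In 20 of the 23 calls the mimic and control libraries did not overlap, as in 84.4% of the calls over all genes tested. The median standard error of a log2 change was 0.1 for these genes and 0.128 for all genes tested. The mimics share their control libraries, so their comparisons with the control are not independent of each other.

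**Figure D2:**
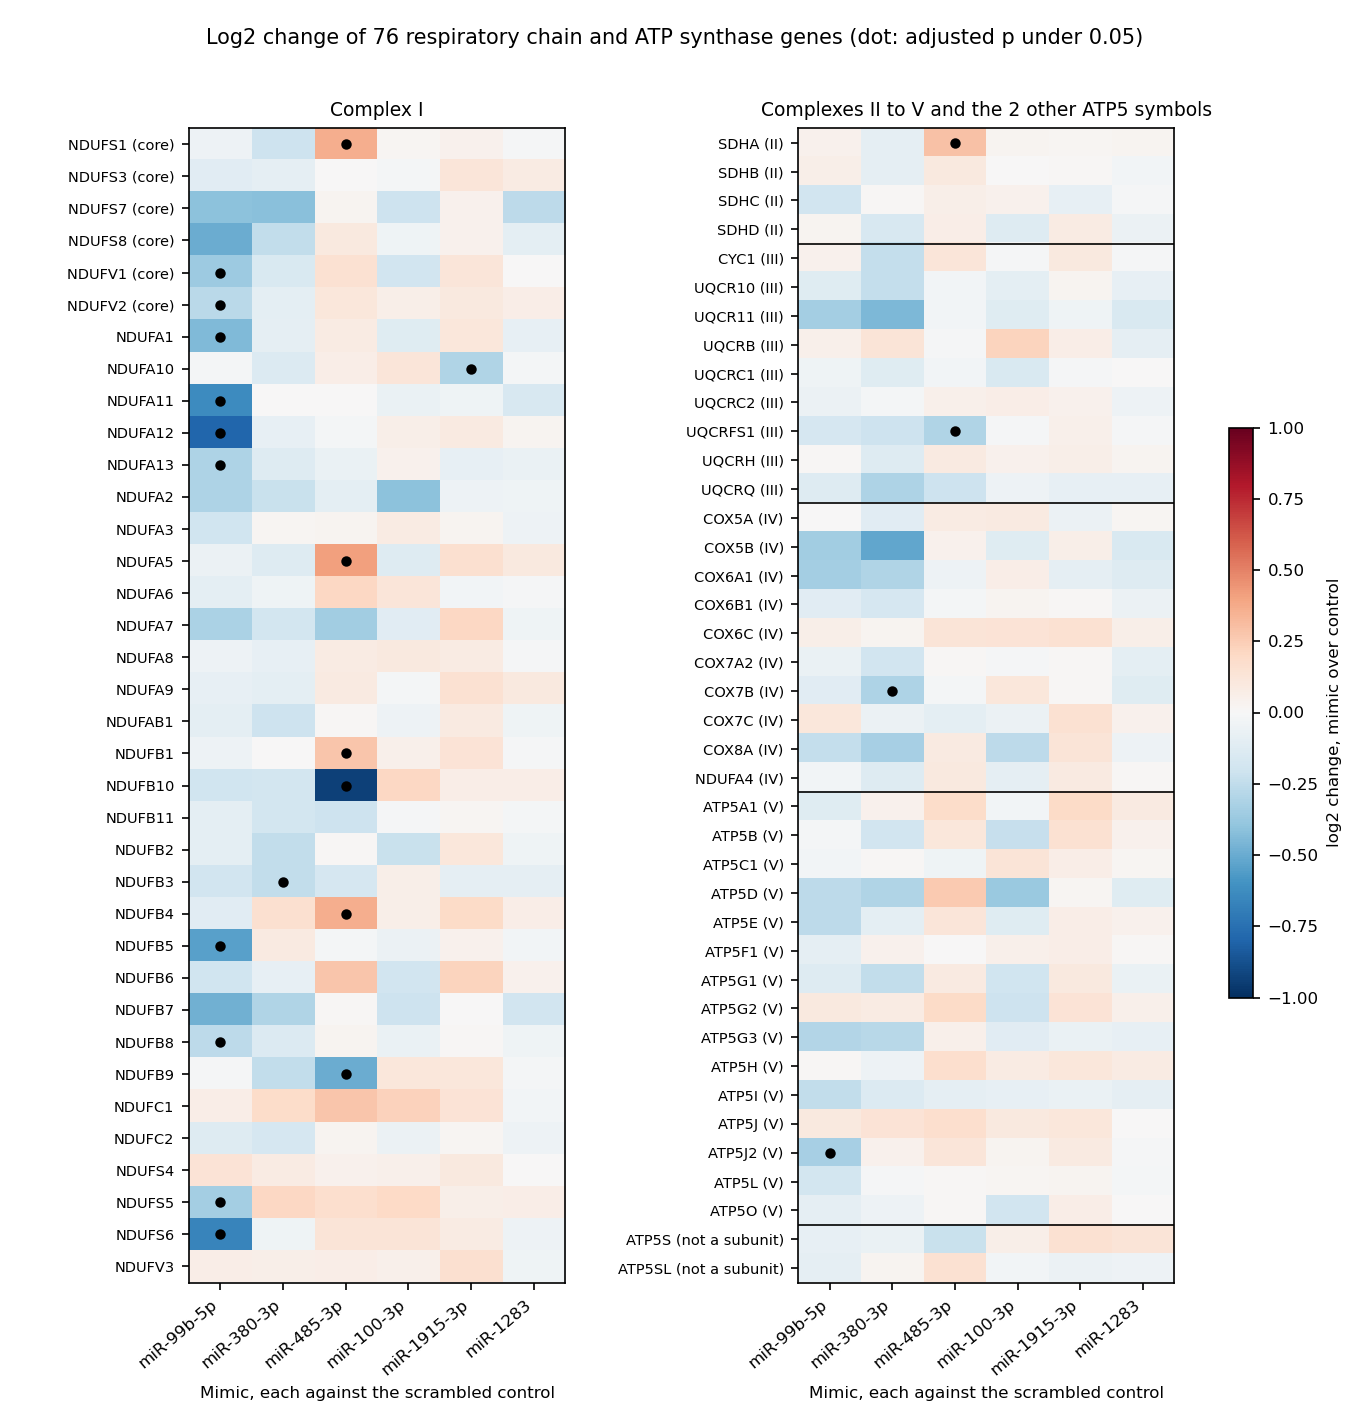
Log2 change of 76 of the 77 genes (rows, by complex) under each mimic against the scrambled control (columns); black dots mark an adjusted p under 0.05. The miR-99b-5p column holds 11 dots, all on lower genes and 10 of them in complex I, and the miR-485-3p column holds 5 dots on higher and 3 on lower genes.

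Under miR-99b-5p, 10 of the 11 genes that passed the adjusted threshold were of complex I, and all 11 fell. Of the 77 genes 11 fell (14.3%, where 8.48% of all genes tested fell) and 0 rose, with 8.11% of all genes higher. The count of higher genes was also 0 at an unadjusted p under 0.05 and 0 by DESeq2. Of the 37 complex I genes 10 fell (27%), and of the 40 others 1 fell (2.5%), which was ATP5J2. At an unadjusted p under 0.05, 12 of the 37 complex I genes and 8 of the 40 others were lower. With only the 8 libraries of the comparison ATP5E, ATP5G3, ATP5I, COX6A1 and SDHC, outside complex I, were also called, besides NDUFA7 and NDUFS8. A test of the difference between complex I and the others was not run. The median log2 change was -0.193 over complex I, -0.087 over the other genes and -0.003 over all genes tested, and 63 of the 77 genes lay below 0. No gene of complexes II, III or IV was called by edgeR or by DESeq2, and 1 gene in each had an unadjusted p under 0.05. Of the 15 genes of the ATP synthase, 5 were lower at an unadjusted p under 0.05 and DESeq2 called 2, ATP5J2 and ATP5I.

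The largest of these falls was that of NDUFA12 (ENSG00000184752, chr12:94897055-95003770 in GENCODE v29 on GRCh38), an accessory subunit of the matrix arm whose paralog NDUFAF2 holds its place during assembly. NDUFA12 had 35.5, 31.1, 31.4 and 28.1 CPM in the 4 miR-99b-5p libraries, against 56.0, 55.7, 57.1 and 49.3 CPM in the 4 control libraries. The groups lay far apart, and the highest mimic library was well below the lowest control. The log2 change was -0.79 ± 0.09 (SE), with an adjusted p of 5.12e-07 (edgeR's quasi-likelihood test with Benjamini-Hochberg adjustment, as for every adjusted p of this text).

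NDUFB5, a subunit of the proton-pumping membrane arm, had 69.0, 59.7, 66.7 and 60.3 CPM in miR-99b-5p libraries, against 92.1, 101.6, 88.5 and 89.9 CPM in control libraries. The log2 change was -0.54 ± 0.08 (SE, adjusted p = 8.6e-06), again with no overlap. NDUFS6, a zinc-binding accessory subunit next to the NADH-oxidizing module, had 37.6, 30.3, 33.0 and 31.8 CPM, against 50, 48.8, 58.8 and 51.6 CPM in control libraries. Every miR-99b-5p library was again below every control, and the log2 change was -0.66 ± 0.15 (SE, adjusted p = 0.0021). NDUFA1, an X-linked membrane arm subunit needed for assembly, had 53.6, 43.9, 48.0 and 48.7 CPM in miR-99b-5p libraries, against 61.4, 66.2, 70.5 and 65.1 CPM in control libraries. The log2 change was -0.44 ± 0.10 (SE, adjusted p = 0.00259), without overlap.

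The remaining calls covered both arms of complex I. NDUFV1, which binds NADH and flavin and is the entry point for electrons, averaged 123.8 ± 8.7 CPM in miR-99b-5p and 158.5 ± 11 CPM in control libraries (SD, n = 4 each), a log2 change of -0.36 with an adjusted p of 0.0128. Its partner NDUFV2, which carries an iron-sulfur cluster, averaged 97.8 ± 9.29 CPM in miR-99b-5p and 117.8 ± 5.79 CPM in control libraries, with a log2 change of -0.27 and an adjusted p of 0.0123. NDUFS5, the most abundant complex I transcript, averaged 172 ± 16.6 CPM in miR-99b-5p libraries and 217.9 ± 13.9 CPM in control libraries, with a log2 change of -0.34 and an adjusted p of 0.00559. These 3 genes also had no overlap between the groups.

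NDUFA11, NDUFA13 and NDUFB8 are subunits with membrane-spanning segments. Their log2 changes under miR-99b-5p were -0.63 ± 0.19, -0.31 ± 0.09 and -0.26 ± 0.09 (SE), with adjusted p-values of 0.0206, 0.0206 and 0.0355. ATP5J2 averaged 154.5 ± 9.04 CPM in miR-99b-5p and 193.7 ± 14 CPM in control libraries (log2 change -0.33 ± 0.08, adjusted p = 0.00509). The read-through row ATP5J2-PTCD1, with a mean count of 11.8% of that of ATP5J2, may share reads with it and changed by -0.19 (adjusted p = 0.28). NDUFS8, a core iron-sulfur subunit, was lower in every miR-99b-5p library than in any control but had a log2 change of -0.50 ± 0.27 and was not called (adjusted p = 0.215, 95% interval -1.05 to 0.05).

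Some of these calls depended on single libraries or settings. Without miR-99b-5p replicate 2 the adjusted p was 0.0886 for NDUFA11, 0.0667 for NDUFA13 and 0.117 for NDUFB8, and without replicate 7 it was 0.0602 for NDUFA13, 0.0774 for NDUFB8 and 0.0564 for NDUFV2. Without control replicate 4 it was 0.0622 for NDUFA11, 0.0572 for NDUFA13 and 0.0745 for NDUFB8, and without control replicate 2 it was 0.0681 for NDUFA13 and 0.0651 for NDUFB8. NDUFB8 was also lost without miR-99b-5p replicate 3 (0.0677) and without control replicate 5 (0.0948). With the replicate block NDUFA13 (0.0652) and NDUFB8 (0.116) were lost, and with no filter NDUFB8 (0.0991) and NDUFV2 (0.0584) were. NDUFA12, NDUFB5, NDUFS6, NDUFA1, NDUFS5, NDUFV1 and ATP5J2 passed under all 16 alternatives.

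**Figure D3:**
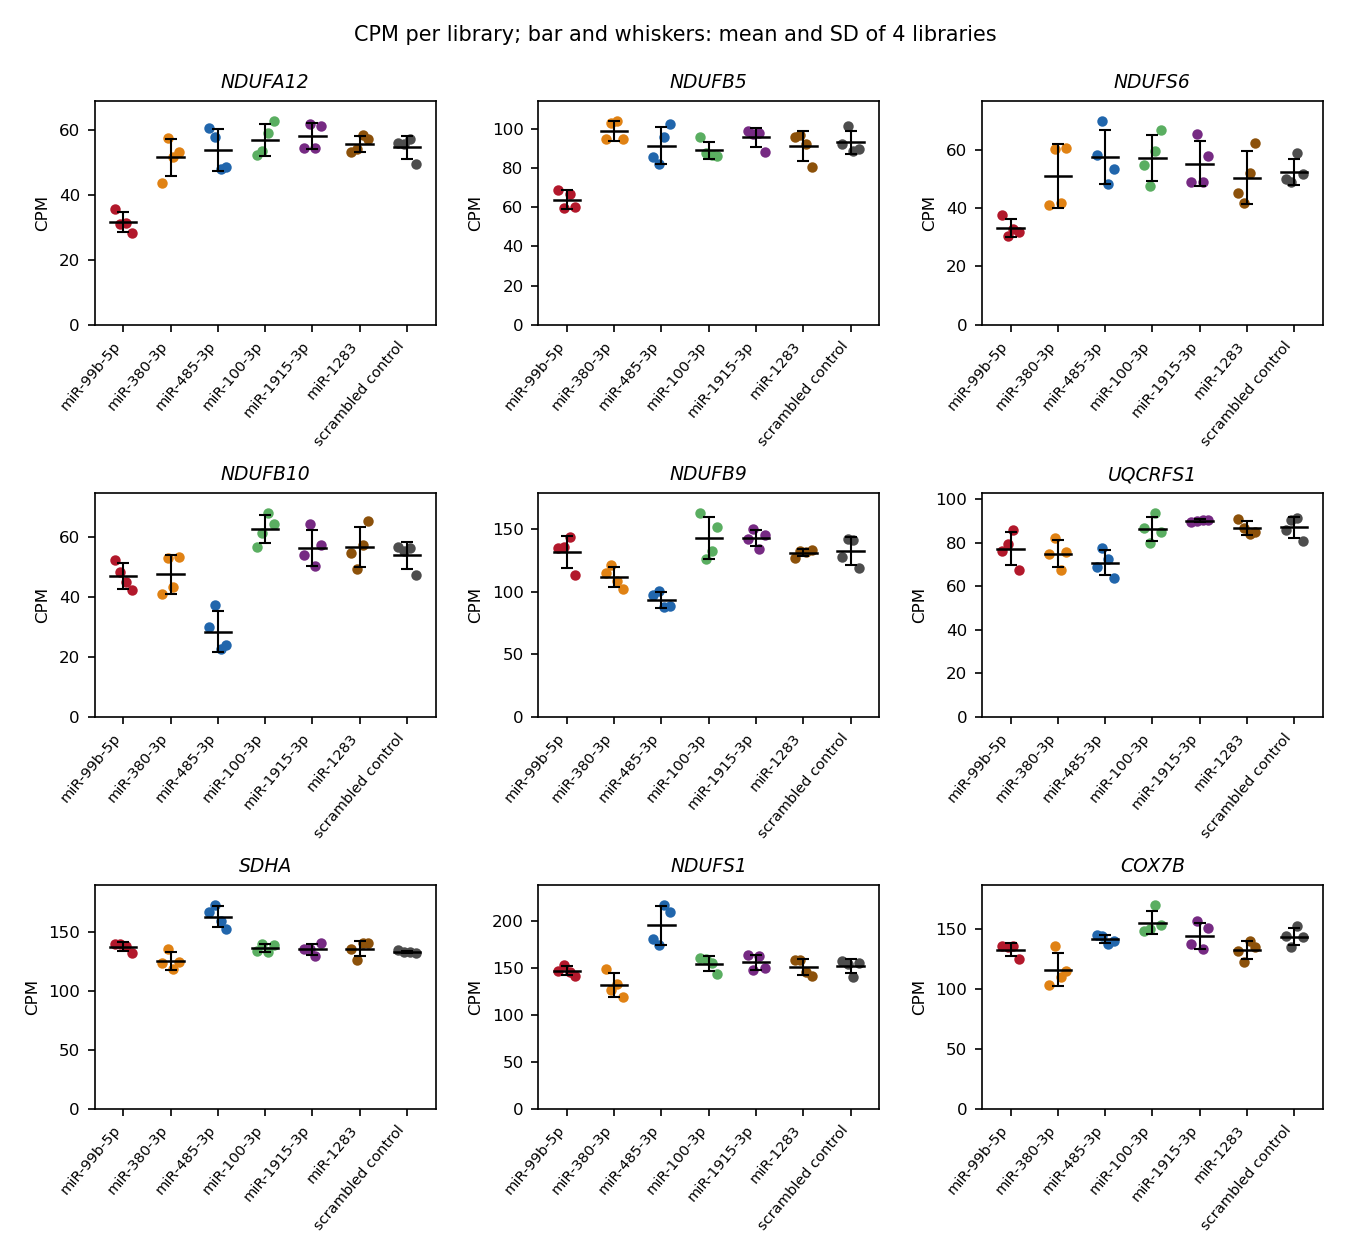
CPM of 9 called genes in every library (points) with the mean and SD of 4 libraries (bars and whiskers), by group, the scrambled control at the right. NDUFA12, NDUFB5 and NDUFS6 are lowest in miR-99b-5p, NDUFB10, NDUFB9 and UQCRFS1 are lowest and SDHA and NDUFS1 highest in miR-485-3p, and COX7B is lowest in miR-380-3p.

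Other measures moved with the miR-99b-5p group. Its GC slopes ran from -2.16 to 0.222, against -0.276 to 1.33 in control libraries, and with the GC slope as a covariate all 11 calls were kept and NDUFA5 was added. The summed CPM of the markers of other cell types was 6.45 to 7.74 in miR-99b-5p and 12.2 to 15.0 in control libraries, with KRT19, VWF and COL1A1 lower in all 3 tests and EPCAM, PECAM1 and ALB near 0. The summed CPM of the 8 neuroblastoma markers was 5512 to 6984 in miR-99b-5p and 8184 to 8979 in control libraries. MYCN, with a median of 4364 CPM over the 28 libraries, was the largest part of this sum. Of the 8 markers 3 were called lower, among them MYCN, and 0 higher. The part of the marker changes in the fall of complex I was not tested.

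By library, the median log2 ratio of the 37 complex I genes to the control mean was -0.232, -0.153, -0.076 and -0.28 in the miR-99b-5p libraries, against -0.047, 0.021, 0.067 and -0.036 in the control libraries. The miR-99b-5p values all lay below the control values. The same held for the ATP synthase, at -0.133, -0.098, -0.067 and -0.21 in miR-99b-5p, against 0.005, 0.026, 0.075 and -0.056 in control libraries. For complex IV the miR-99b-5p values were -0.132, -0.014, 0.024 and -0.211, against -0.027, 0.007, 0.063 and -0.046 in control libraries, and they overlapped.

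**Figure D4:**
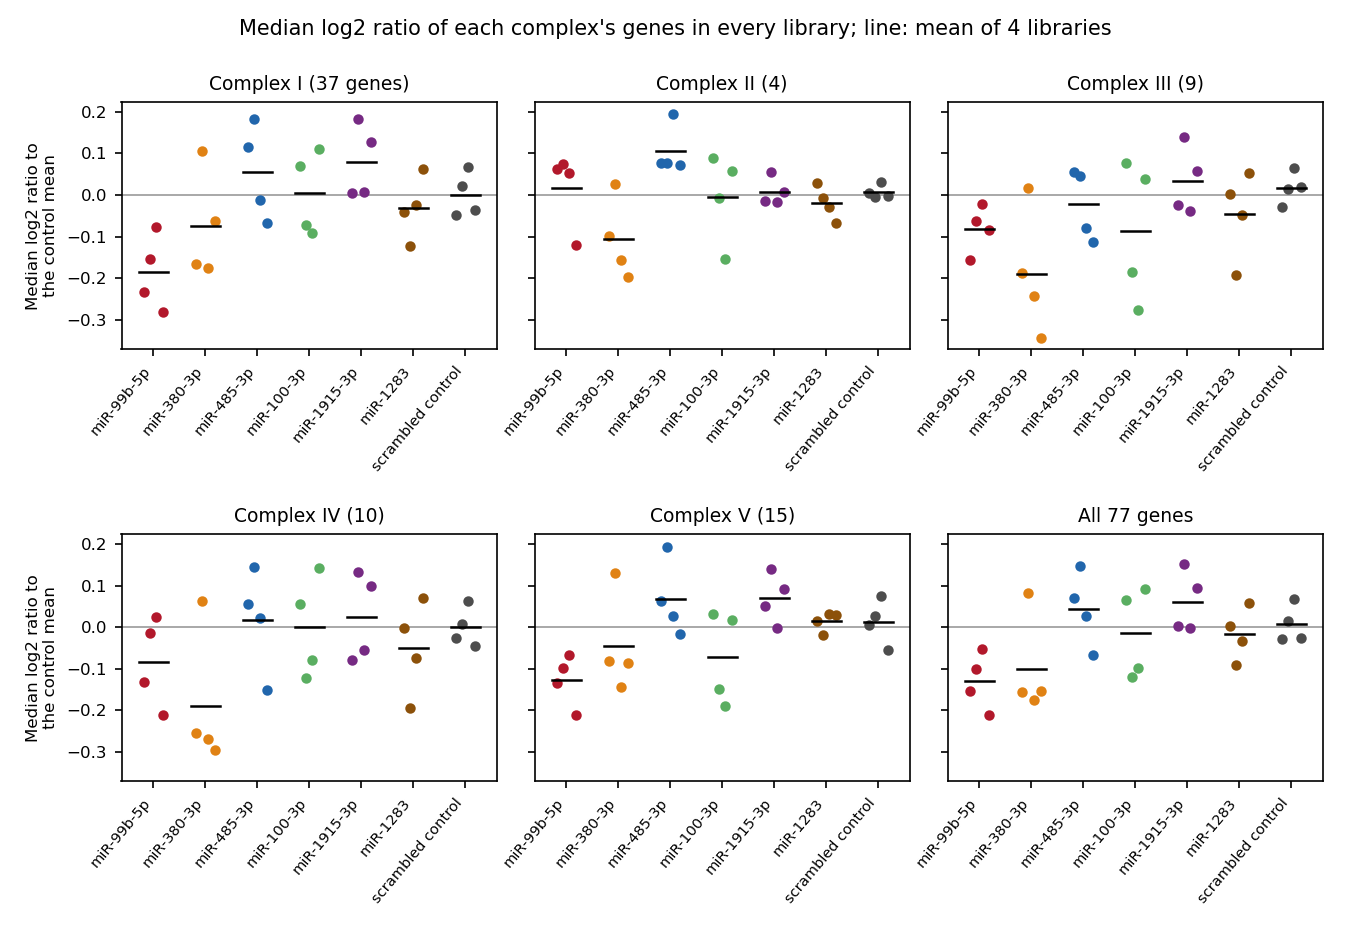
Median log2 ratio of the genes of each complex to the control mean in every library (points; the line is the mean of 4 libraries), with the scrambled control at the right. For complex I the miR-99b-5p libraries lie between -0.28 and -0.076, below all control libraries, and for complex V they also lie below all controls. In the miR-380-3p group, replicate 2 stands above the other 3 libraries.

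Under miR-380-3p, many of the genes were slightly lower and 2 were called. COX7B and NDUFB3 fell (2.6% of the genes, where 5.25% of all genes tested fell) and 0 rose, with 5.6% of all genes higher. DESeq2 also called 0 higher, and at an unadjusted p under 0.05 1 gene was higher and 15 were lower. The median log2 change was -0.113, against -0.003 over all genes tested, and 58 of 77 genes lay below 0. Medians were -0.215 for complex III, -0.184 for complex IV, -0.099 for complex I and -0.045 for the ATP synthase.

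COX7B encodes a small X-linked subunit of complex IV. It had 103.6, 135.7, 110.2 and 114.8 CPM in miR-380-3p libraries, against 143.7, 134.7, 152.6 and 143.2 CPM in control libraries. Replicate 2 was at the level of the lowest control, so the groups overlapped, and the other 3 libraries were below all controls. The log2 change was -0.31 ± 0.07 (SE, adjusted p = 0.00496) and the call was kept under all 16 alternatives. NDUFB3, of the membrane arm of complex I, had 43.9, 44.3, 38.5 and 46.7 CPM in miR-380-3p and 47.2, 52.8, 54.3 and 51.5 CPM in control libraries. These groups did not overlap, but at -0.25 ± 0.08 the adjusted p was 0.0491 and the call was lost in 10 of 16 alternatives. Among these were the fits without miR-380-3p replicates 1, 2 and 3 (adjusted p 0.0734, 0.0621 and 0.195) and without control replicates 2, 4 and 5 (0.113, 0.132 and 0.0954).

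Among the genes with no call under miR-380-3p, COX5B had a log2 change of -0.52 ± 0.20 (adjusted p = 0.103), UQCR11 of -0.45 ± 0.20 (adjusted p = 0.169) and UQCRQ of -0.31 ± 0.12 (adjusted p = 0.0911). A second row of UQCR11, with a mean count of 25.2% of that of the row kept, may share reads with it. Replicate 2 stood apart: the median log2 ratio of the 77 genes was 0.083 there and -0.155, -0.175 and -0.154 in replicates 1, 3 and 4, against -0.028 to 0.067 in control libraries. Its GC slope was 1.51, against -1.11 to -0.154 in the other 3. Without replicate 2 there were 8 calls, all lower, and without miR-380-3p replicate 3, control replicate 2 or control replicate 4 there was 1. With the GC slope as a covariate 10 genes were called lower: the same 2 and COX5B, NDUFA5, NDUFB9, NDUFS1, UQCR10, UQCR11, UQCRFS1 and UQCRQ. The summed CPM of the markers of other cell types was 13.4 to 17.1 in miR-380-3p and 12.2 to 15.0 in control libraries, with COL1A1 higher and KRT19 lower. The summed CPM of the neuroblastoma markers was 6355 to 7876 in miR-380-3p and 8184 to 8979 in control libraries. Of these 8 markers 1 was called higher and 3 lower. The part of these measures in the changes was not tested.

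Under miR-485-3p, genes changed in both directions, with 6 higher and 3 lower. That is 7.79% higher and 3.9% lower, where 10.5% of all genes tested rose and 10.6% fell. The median log2 change was 0.049, against 0.025 over all genes tested. Of the 9 calls 7 were in complex I, in which 5 rose and 2 fell, and the others were SDHA of complex II and UQCRFS1 of complex III. The 10 genes of complex IV and the 15 of the ATP synthase had no call and no unadjusted p under 0.05, and DESeq2 called 0 of them.

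NDUFB10 (ENSG00000140990, chr16:1959508-1961975 in GENCODE v29 on GRCh38), a membrane arm subunit with disulfide bonds, had 30.1, 37.4, 22.7 and 23.9 CPM in miR-485-3p libraries, against 56.9, 55.6, 56.3 and 47.4 CPM in control libraries. The groups lay apart, and the log2 change of -0.93 ± 0.13 was the largest of any gene described here (SE, adjusted p = 5.25e-06). NDUFB9, another subunit of the membrane arm, had 97.6, 100.6, 88.0 and 88.5 CPM in miR-485-3p and 127.9, 142.0, 141.6 and 118.8 CPM in control libraries. Its log2 change was -0.50 ± 0.08 (SE, adjusted p = 6.3e-05), with no overlap. UQCRFS1 averaged 70.8 ± 5.88 CPM in miR-485-3p and 87.1 ± 4.95 CPM in control libraries, a log2 change of -0.30 ± 0.07 (SE, adjusted p = 0.00414).

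The genes that rose under miR-485-3p included catalytic subunits. SDHA, the flavoprotein that oxidizes succinate, had 167.5, 173.0, 159.9 and 152.6 CPM in miR-485-3p libraries, against 134.6, 133.2, 133.4 and 132.7 CPM in control libraries. The control values were tight and every mimic library was above them (log2 change 0.29 ± 0.05, adjusted p = 0.000188). Its pseudogenes SDHAP1, SDHAP2 and SDHAP3, with mean counts of 21.0% of that of SDHA together, could share reads, and SDHAP1 fell in the same comparison (log2 change -0.30 ± 0.10, adjusted p = 0.0378). NDUFS1, the largest iron-sulfur core subunit of complex I, had 181.1, 174.3, 216.7 and 209.1 CPM in miR-485-3p libraries, against 157.6, 154.0, 140.6 and 155.3 CPM in control libraries. Its log2 change was 0.36 ± 0.07 (SE, adjusted p = 0.000622), without overlap.

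NDUFB4 and NDUFB1 of the membrane arm rose by 0.36 and 0.28 (adjusted p = 0.00357 and 0.04) with overlapping libraries, and NDUFA5 of the matrix arm rose by 0.41 (adjusted p = 0.013). The NDUFA5 call was lost without miR-485-3p replicate 3 (adjusted p = 0.119) and without replicate 5 (0.064). The NDUFB1 call was lost in 9 of 16 alternatives, among them the fits without miR-485-3p replicates 1, 2 and 3 (0.0747, 0.0649 and 0.209) and without control replicates 1, 2 and 5 (0.0962, 0.069 and 0.125). The other 7 calls were kept in all 16. The GC slope of this group was 0.62 ± 1.87, against 0.48 ± 0.664 in control libraries, and all 9 calls were kept with it as a covariate. The summed CPM of the markers of other cell types was 9.36 to 12 in miR-485-3p and 12.2 to 15.0 in control libraries, and that of the neuroblastoma markers was 5831 to 7882 in miR-485-3p and 8184 to 8979 in control libraries. Of the 8 neuroblastoma markers 3 were called lower and 0 higher. The part of both sums in these changes was not tested.

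Under miR-100-3p, 0 of the 77 genes were called by edgeR and 0 by DESeq2, where 5.96% of all genes tested were called, 2.9% higher and 3.05% lower. At an unadjusted p under 0.05 1 gene was higher and 3 were lower. The lowest was NDUFA2, of the matrix arm, at -0.41 ± 0.14 (adjusted p = 0.0864). Without miR-100-3p replicate 1 or without replicate 4 there was 1 call, and with the GC slope as a covariate NDUFA2 and NDUFA5 were called lower. The median log2 change was -0.012, against -0.009 over all genes tested.

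Under miR-1915-3p 1 gene fell (1.3%, where 0.232% of all genes tested fell) and 0 rose, by edgeR and by DESeq2 alike, with 1 gene higher at an unadjusted p under 0.05. NDUFA10, an accessory subunit related to nucleoside kinases, had 74.4, 82.4, 73.9 and 79.9 CPM in miR-1915-3p libraries, against 97.0, 96.8, 93.3 and 95.5 CPM in control libraries. The groups did not overlap, and the log2 change was -0.30 ± 0.06 (SE, adjusted p = 0.0254). The call was lost in 11 of 17 alternatives, with adjusted p-values up to 0.328 where both libraries with a suffix in their titles, replicates 1 and 4, were left out. It was lost without miR-1915-3p replicates 1, 3 and 4 (0.114, 0.142 and 0.0637) and without control replicates 1, 2, 4 and 5 (0.0947, 0.093, 0.0529 and 0.0852), while its log2 change stayed between -0.33 and -0.28. The median over the 77 genes was 0.067, against 0.002 over all genes tested, and 61 lay above 0 and 16 below, where 49.5% of all genes tested lay below 0. The summed CPM of the neuroblastoma markers was 6560 to 7641 in miR-1915-3p and 8184 to 8979 in control libraries. Of these 8 markers 1, MYCN, was called lower and 0 higher. The part of this sum in the changes was not tested.

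Under miR-1283, edgeR and DESeq2 called 0 of the genes and none had an unadjusted p under 0.05, where 0.0199% of all genes tested were called. The log2 changes ran from -0.26 for NDUFS7 to 0.13 for ATP5S, and the median was -0.019.

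Direct contrasts between mimics tested whether these patterns differed from each other. Between miR-99b-5p and miR-485-3p, 26 genes differed (33.8%, where 33.5% of all genes tested did), with 2 higher and 24 lower in miR-99b-5p. The 2 higher genes were NDUFB10 (0.73 ± 0.13) and NDUFB9 (0.49 ± 0.08), which fell under miR-485-3p. Between miR-99b-5p and miR-380-3p 11 genes differed (14.3%, where 24% of all genes tested did), with 2 higher and 9 lower in miR-99b-5p. Between miR-380-3p and miR-485-3p 18 differed (23.4%, where 29% of all genes tested did), with 2 higher and 16 lower in miR-380-3p. That last count fell to 10 without miR-380-3p replicate 1, to 11 without its replicates 3 or 4 or without miR-485-3p replicate 2, and was 27 without miR-380-3p replicate 2. Between miR-380-3p and miR-1283, and between miR-100-3p and miR-1283, edgeR called 0 of the 77 genes, where 11.6% and 5.8% of all genes tested were called. In the first contrast 1 gene was higher and 8 were lower in miR-380-3p at an unadjusted p under 0.05. In the second 5 were higher and 3 lower in miR-100-3p. DESeq2 was not run on either of these contrasts with miR-1283. Without miR-99b-5p replicate 3 the count of miR-99b-5p against miR-380-3p was 6.

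Of the 11 genes that fell under miR-99b-5p, 6 were also lower than under each of the 5 other mimics: NDUFA12, NDUFB5, NDUFS6, NDUFA1, NDUFS5 and ATP5J2. The same held for 35.7% of all genes that fell under miR-99b-5p. These contrasts reuse the libraries in which the genes were called, so they are not independent of the calls. For NDUFA12 these differences ran from -0.88 to -0.71 on the log2 scale, with adjusted p-values up to 1.43e-06. Of the 9 calls under miR-485-3p, 5 differed from every other mimic, among them NDUFB10 and NDUFB9, which were lower, and SDHA and NDUFS1, which were higher. The same held for 33.8% of all genes called under miR-485-3p. NDUFB10 differed by -1.14 to -0.73 and SDHA by 0.25 to 0.38. COX7B under miR-380-3p was lower than under 4 of the 5 others, and with miR-1283 the adjusted p was 0.0925. NDUFA10 under miR-1915-3p was likewise lower than under 4 of 5, with an adjusted p of 0.0793 against miR-380-3p.

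Sites for the mimics were searched as heptamers complementary to the seed in 1 3′ UTR per gene, the longest one annotated (GENCODE v29 on GRCh38, a build other than the authors' hg19). A site for miR-99b-5p was found in 1 of the 77 genes, SDHC (1.3%, where 1.26% of all tested genes with a UTR hold one), so that none of the 11 genes that fell holds one in this UTR. For miR-380-3p 9 genes held a site (11.7%, against 15% of all), and for miR-485-3p 3 did (3.9%, against 14.3%). For miR-100-3p 5 did (6.49%, against 10.5%), for miR-1915-3p 10 did (13%, against 23.1%) and for miR-1283 8 did (10.4%, against 20.8%). Of the genes with a site 2 were called lower under the matching mimic, COX7B and NDUFB10. That is 1 of 9 for miR-380-3p, where 14.6% of all genes with its site fell, and 1 of 3 for miR-485-3p, where 28% did. Among the 77 genes without a site, 1 fell under miR-380-3p and 2 under miR-485-3p.

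Both of these sites are shown with their surroundings, as 30 bases with the heptamer in capitals, beside the site of SDHC.
COX7B, miR-380-3p: tatcttttgcttATTACATagagtgctaga
NDUFB10, miR-485-3p: gctgtgtggctcTGTATGActgttgctgaa
SDHC, miR-99b-5p: actgagtcgctaTACGGGTttttcagtgtg
The heptamer of COX7B lies at chrX:77907088-77907094, that of NDUFB10 at chr16:1961938-1961944 and that of SDHC at chr1:161364845-161364851, all on the plus strand of GRCh38. The site of COX7B is followed by an A. Among the 77 genes, NDUFB10 and COX7B had the smallest adjusted p under miR-485-3p and miR-380-3p. The 3′ UTR searched for SDHC holds sites for all 6 mimics, and SDHC had no call, with a log2 change of -0.19 ± 0.08 under miR-99b-5p (adjusted p = 0.0887). This UTR has 12907 bases and that of COX7B 2112, more than the deposited gene lengths of 1306.94 and 771.7 bases. Whether the RNA of these cells holds the sites of SDHC and COX7B was not tested.

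The promoters of respiratory chain genes are known for motifs of the factors NRF1, GABPA of the ETS family and YY1. RefSeq promoters of 300 bases, 250 before and 50 after the start, were matched for 62 of the 77 genes. They were compared with the promoters of 15843 protein-coding genes of RefSeq. That larger set was not limited to genes tested in these cells, so it may also differ from the 77 genes in expression. On either strand, the NRF1 core GCGCATGC was found in 21% of the genes' promoters, against 4.26% of all. The ETS core CCGGAAG was found in 29% against 14.2%, and the YY1 core AAGATGG in 25.8% against 6.4%. Of the 11 genes that fell under miR-99b-5p 8 had a matched promoter, and ATP5J2, NDUFB5 and NDUFS5 did not. Among the 8, the NRF1 core was in the promoter of NDUFS6, the ETS core in those of NDUFA1 and NDUFA13 and the YY1 core in that of NDUFA12. A match of letters is not shown to be a binding site.

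Of the genes that fell under miR-99b-5p and carry a motif, the promoters of NDUFS6 and NDUFA12 are shown, and those of NDUFA1 and NDUFA13 are not. The motif is in capitals (RefSeq, GRCh38.p14, in the direction of the gene).
NDUFS6: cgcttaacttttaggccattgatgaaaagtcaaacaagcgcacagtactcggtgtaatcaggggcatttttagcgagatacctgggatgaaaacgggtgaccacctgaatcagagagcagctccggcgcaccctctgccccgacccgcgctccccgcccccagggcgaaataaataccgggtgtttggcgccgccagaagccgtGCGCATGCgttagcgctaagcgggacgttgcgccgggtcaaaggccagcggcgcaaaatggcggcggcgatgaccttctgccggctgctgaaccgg
NDUFA12: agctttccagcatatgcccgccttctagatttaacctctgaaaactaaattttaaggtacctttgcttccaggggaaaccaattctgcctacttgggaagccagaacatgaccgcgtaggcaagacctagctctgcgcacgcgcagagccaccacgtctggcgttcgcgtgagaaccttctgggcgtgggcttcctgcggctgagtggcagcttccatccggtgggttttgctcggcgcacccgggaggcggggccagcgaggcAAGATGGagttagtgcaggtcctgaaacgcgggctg
They lie at chr5:1801157-1801456 on the plus strand and chr12:95003648-95003947 on the minus strand.

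Genes that serve the same complexes were read from the same fits. Of 43 assembly factors tested, 1 rose and 6 fell under miR-99b-5p (median log2 change -0.102, against -0.003 over all genes tested), 5 fell under miR-380-3p, 4 rose and 2 fell under miR-485-3p and 2 fell under miR-100-3p. For this list and those that follow, the shares of all genes tested that rose and fell were 8.11% and 8.48% under miR-99b-5p, 5.6% and 5.25% under miR-380-3p, 10.5% and 10.6% under miR-485-3p and 2.9% and 3.05% under miR-100-3p. Under miR-99b-5p, COX16, an assembly factor of complex IV with an overlapping read-through row, averaged 25.1 ± 2.77 CPM, against 41 ± 0.665 CPM in control libraries (log2 change -0.71 ± 0.08, adjusted p = 6.53e-07). TMEM126B, an assembly factor of complex I, averaged 20.3 ± 1.13 CPM in miR-99b-5p and 26.4 ± 0.666 CPM in control libraries (-0.38, adjusted p = 0.00192). Under miR-100-3p TMEM126B was also lower (-0.30, adjusted p = 0.0326), as was COX15, which makes the heme of complex IV (-0.29, adjusted p = 0.0219). Under miR-380-3p UQCC1, of complex III assembly, had a log2 change of -0.42 ± 0.07 (adjusted p = 0.000126), and NDUFAF5 of complex I assembly had a log2 change of -0.46 (adjusted p = 0.00139).

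The subunit gene COX7A2L, which takes part in supercomplexes and is outside the symbol patterns, had log2 changes of 0.23 under miR-99b-5p (adjusted p = 0.0162), -0.39 under miR-380-3p (adjusted p = 0.000296) and -0.33 under miR-485-3p (adjusted p = 0.000741). USMG5, a small subunit of the ATP synthase, had log2 changes of -0.22 under miR-99b-5p (adjusted p = 0.0479) and -0.36 under miR-380-3p (adjusted p = 0.00245). Of the 7 subunit genes tested outside the patterns, no other was called. Of the 13 mitochondrially encoded mRNAs, 0 were called by edgeR or DESeq2 under any mimic. At an unadjusted p under 0.05, 4 were higher under miR-380-3p, 1 was higher and 1 lower under miR-485-3p and 0 under the 4 others. The mitochondrially encoded mRNAs took 8.05% ± 0.61 of the counts in miR-99b-5p, 9.73% ± 1.88 in miR-380-3p, 7.15% ± 1.43 in miR-485-3p and 8.12% ± 0.469 in control libraries (SD, n = 4 each).

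Among 21 genes of the citric acid cycle and pyruvate dehydrogenase, 1 rose and 2 fell under miR-99b-5p, 1 rose and 1 fell under miR-380-3p, 3 rose and 1 fell under miR-485-3p and 1 fell under miR-100-3p. PDK1, the kinase that shuts off pyruvate dehydrogenase, averaged 102.8 ± 14.5 CPM in miR-99b-5p and 67.9 ± 11 CPM in control libraries (log2 change 0.60, adjusted p = 0.00119). Under miR-380-3p PDK1 was at 30 ± 5.52 CPM, against the same controls (-1.18 ± 0.13, adjusted p = 5.59e-07). Under miR-485-3p PDHX, a binding protein of the complex, was lower (-0.36, adjusted p = 0.000466) and IDH3A, a citric acid cycle dehydrogenase, was higher (0.37, adjusted p = 0.00301). IDH2, the mitochondrial NADP-dependent enzyme, was lower under miR-100-3p (-0.37, adjusted p = 0.0084).

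Among 19 regulators of mitochondrial genes, 1 was higher and 2 were lower with miR-99b-5p, 3 fell under miR-380-3p, 3 fell under miR-485-3p, 1 rose under miR-100-3p and 1 fell under miR-1915-3p. ESRRG, an orphan nuclear receptor that acts on oxidative genes, averaged 49.3 ± 9.02 CPM in miR-99b-5p and 19 ± 1.44 CPM in control libraries (log2 change 1.37 ± 0.16, adjusted p = 7.82e-07). PPARGC1A, a coactivator of mitochondrial biogenesis, averaged 7.48 ± 1.7 CPM in miR-485-3p and 14.2 ± 2.2 CPM in control libraries (-0.93 ± 0.15, adjusted p = 6.32e-05). MYCN, the amplified oncogene of this line, averaged 3429 ± 227 CPM in miR-99b-5p and 5053 ± 205.9 CPM in control libraries (-0.56, adjusted p = 1.69e-05). MYCN was also lower under miR-380-3p (-0.32, adjusted p = 0.0104) and miR-1915-3p (-0.40, adjusted p = 0.0245) and higher under miR-100-3p (0.34, adjusted p = 0.0123). The call under miR-1915-3p was lost without both libraries with a suffix (adjusted p = 0.224), without miR-1915-3p replicates 1, 3 and 4 (0.104, 0.117 and 0.0633) and without control replicates 1, 4 and 5 (0.0782, 0.0619 and 0.106). The part of MYCN in the changes of the 77 genes was not tested.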

How the data were processed

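RNA-seq of 28 libraries was read from 1 table of expected counts per gene, which the authors deposited; per the submitters' processing notes, reads were handled with STAR and the build hg19. The counting tool, the annotation and the use of strand are not given in the sources used here. Expected counts were rounded (10.2% were not whole). Libraries held 10.99 to 23.3 M counts. All 28 libraries were fitted together with edgeR 4.0.16 (TMM scaling, filterByExpr, quasi-likelihood test, two-sided) in R 4.3.3, with Benjamini-Hochberg adjustment over 15058 genes and a threshold of 0.05. CPM were scaled by TMM. Levels per kb used the deposited gene lengths. The script was tested on simulated data. Alternatives were DESeq2 1.42.0, other scalings and filters, a replicate block, the GC slope as a covariate, a fit limited to the 8 libraries compared, and leaving out libraries. Every called member was named but 1, which is not reported here; library values are given for up to 4 called members per mimic with the smallest adjusted p, and up to 4 called genes per mimic, and MYCN, were named from the related lists. The members and lists were chosen with earlier results of these data known.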

Additional observations from a re-analysis of the deposited data

Results flagged for a closer look

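In groups of 4 libraries, a library was singled out when its gap to the nearest other library took a share of the group's range above Dixon's 95% critical value. Chance does this in about 1 of 20 groups, and 2 of the 43 groups tested were singled out. NDUFB10 had 47.4 CPM in control replicate 5, below the other 3 control libraries and above every miR-485-3p library. The median log2 ratio of the 77 genes to the control mean was 0.083 in miR-380-3p replicate 2, above the other 3 libraries of its group.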

How the results depend on the processing

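No called gene changed direction under the alternatives run, while the medians of the 77 genes under miR-100-3p and miR-1283, which are near 0, lay on either side of 0. With the GC slope as a covariate, 10 of the 77 genes were called under miR-380-3p, 2 under miR-100-3p and 21 between miR-99b-5p and miR-380-3p; over all genes the calls were 2778 under miR-380-3p, 4878 under miR-485-3p, 1764 under miR-100-3p and 181 under miR-1915-3p; and in the related lists 26 under miR-99b-5p, 23 under miR-380-3p and 8 under miR-100-3p. With no filter the 77 genes gave 1 call under miR-380-3p, 0 under miR-1915-3p, 7 between miR-99b-5p and miR-380-3p and 10 between miR-380-3p and miR-485-3p, all genes gave 564 under miR-100-3p and 1 under miR-1283, and the related lists gave 9 under miR-99b-5p, 9 under miR-485-3p and 2 under miR-100-3p. With only the 8 libraries of a comparison, 18 of the 77 genes were called under miR-99b-5p and 0 under miR-1915-3p, all genes gave 2000 under miR-485-3p, 491 under miR-100-3p and 0 under miR-1283, and the related lists gave 7 under miR-485-3p and 2 under miR-100-3p. Under miR-380-3p median-of-ratios scaling gave 1 call, a mean CPM of at least 5 gave 5 and DESeq2 gave 4. DESeq2 called 81 of all genes under miR-1915-3p and 5 under miR-1283. Without both libraries with a suffix, miR-1915-3p had 0 calls among the 77 genes, 17 among all genes and 0 in the related lists. The cause of these shifts was not tested.

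With the replicate block, 9 of the 77 genes were called under miR-99b-5p, 3 under miR-380-3p, 9 under miR-485-3p and 0 under miR-1915-3p. The main fit did not pair libraries by number. Of the same-number pairs with the control, 9 of 17 correlated above 0.1. Of all same-number pairs 27 of 67 did, against 59 of 269 pairs with different numbers. The median correlation was 0.0533 for same-number pairs and -0.00885 for the others. Whether libraries of the same number share a source was not tested. Leaving out 1 library at a time gave 8 to 13 calls among the 77 genes under miR-99b-5p, 1 to 8 under miR-380-3p, 7 to 10 under miR-485-3p, 0 to 1 under miR-100-3p and 0 to 1 under miR-1915-3p. Between mimics it gave 6 to 13 for miR-99b-5p against miR-380-3p and 10 to 27 for miR-380-3p against miR-485-3p. Over all genes it gave 1056 to 1755 under miR-380-3p, 2240 to 3395 under miR-485-3p, 551 to 900 under miR-100-3p, 20 to 36 under miR-1915-3p and 0 to 2 under miR-1283. In the related lists it gave 9 to 14 under miR-99b-5p, 10 to 15 under miR-485-3p, 2 to 3 under miR-100-3p and 0 to 1 under miR-1915-3p.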
